A study of Mus musculus with 6 samples.

Results

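The genes described here act in glycolysis, most of them at its regulated steps. They are the hexokinase genes Hk1 and Hk2, the phosphofructokinase-1 genes Pfkm, Pfkl and Pfkp, the phosphofructokinase-2 genes Pfkfb1, Pfkfb2, Pfkfb3 and Pfkfb4, and the phosphoglycerate mutase gene Pgam1. They were taken by gene symbol from the table of counts, and all 10 listed genes were among its 13384 rows. RNA was sequenced from left ventricles of 3 adult Cygb knockout mice (KO, Cygb(-/-), a deletion in every tissue) and of 3 wild-type littermates (WT, Cygb(+/+)). All 6 animals carried an osmotic pump that gave angiotensin II at 1.5 mg/kg/day for 2 weeks, and no animal without angiotensin II was analysed here. The comparison asks how the loss of cytoglobin alters the transcripts of a ventricle under angiotensin II. Each library came from 1 mouse, and neither exact age nor sex is given in the labels.

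Hexokinases trap glucose in the cell as glucose 6-phosphate. HK1 is the widely expressed isoform, and HK2 is the insulin-responsive isoform of heart and skeletal muscle. Phosphofructokinase-1 commits the sugar to glycolysis and works as a tetramer of muscle (PFKM), liver (PFKL) and platelet (PFKP) subunits. The PFKFB enzymes both make and break fructose 2,6-bisphosphate, a strong activator of phosphofructokinase-1. PFKFB2 is the heart isoform and is switched on by insulin and AMP-activated kinase, PFKFB3 is an inducible isoform with a high kinase activity, PFKFB1 was described in liver and skeletal muscle and PFKFB4 in testis. PGAM1 and its muscle counterpart PGAM2 act lower in the pathway.

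Libraries held 23190864 to 30354857 counts. Cygb was not analysed here, so genotypes rest on the labels. Markers of ventricular muscle summed to between 56636 and 67200 CPM in KO libraries and between 56247 and 74450 CPM in WT libraries (CPM, counts scaled to a common library size with TMM factors). WT replicate 2 stood apart in the 8 fibroblast markers, all of them measured, which summed to 3440 CPM there, against 1484 to 1885 CPM in KO libraries and 1517 and 1546 CPM in the other WT libraries. The 6 atrial muscle markers, all measured, summed to 536 to 609 CPM in KO libraries, against 3063, 2141 and 734 CPM in WT libraries. Nppa made up most of each sum, at 449 to 533 CPM in KO libraries, against 2282, 2058 and 623 CPM in WT libraries. Myl7 was at 12.0 to 13.4 CPM in KO libraries, against 250, 19.2 and 27.6 CPM in WT libraries, and Myl4 was likewise highest in WT replicate 1. Sln overlapped between the groups, and Kcna5 went the other way, higher in every KO library (log2 fold change 0.74). The 5 smooth muscle markers summed to 142 to 192 CPM in KO and 199 to 313 CPM in WT, and the 6 macrophage markers to 202 to 235 CPM in KO and 170 to 191 CPM in WT. The 3 mesothelial markers summed to 11.3 to 16.2 CPM in KO and 17.7 to 41.5 CPM in WT, and the 2 measured of 5 lymphocyte markers to 14.5 to 18.4 CPM in KO and 9.43 to 13.1 CPM in WT. Single genes did not all follow these sums. Of the macrophage genes only Cd163 was separated between the groups (log2 fold change 0.91), and C1qa was at -0.0042. Of the smooth muscle genes Acta2 (-0.75) and Myl9 (-0.77) were separated, while Myh11, Tagln and Cnn1 overlapped. The lymphocyte sum was nearly all Ptprc (13.4 to 17.7 CPM in KO and 8.52 to 12.4 CPM in WT). Cd79a, the other lymphocyte gene, had a log2 fold change, KO minus WT, of -0.26, and Wt1, of the mesothelial list, of 0.14. The only measured gene of 5 skeletal muscle markers, Acta1, was at 667 to 786 CPM in KO and 1602 to 1949 CPM in WT. The sums of these atrial, smooth muscle, macrophage, mesothelial and lymphocyte lists, and Acta1, separated the groups, while that of the fibroblast list did not, and their part in the results that follow was not tested. In whole ventricle, fewer cells of a type and less RNA per cell cannot be told apart.

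No gene of the 10 passed the edgeR quasi-likelihood test at a Benjamini-Hochberg adjusted p under 0.05 over all genes, a threshold that 0.112% of all 13384 genes passed. At an unadjusted p under 0.05 there were 2 higher (Pfkfb1 and Pfkfb3) and 3 lower (Pfkl, Pfkp and Pgam1), and 19.2% of all genes were under that value. DESeq2 called 1 of the 10, Pfkfb1, among 4.62% of all genes, and limma-voom called 0. In Pfkfb1 alone, all 3 KO libraries lay above all 3 WT libraries, a pattern of 11.8% of all genes. In Hk1, Pfkl and Pgam1 all KO libraries lay below all WT libraries, as they did for 10.5% of all genes. The median log2 fold change, KO minus WT, was 0.065 over the 10 genes and -0.0045 over all genes.

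Pfkfb1, a minor isoform in this tissue, showed the largest difference of the 10. It was at 11.03, 12.3 and 9.66 CPM in KO ventricles, against 3.29, 2.48 and 5.70 CPM in WT ventricles. The groups did not overlap, and the lowest KO library exceeded the highest WT library by more than the SD within either group (1.31 CPM in KO and 1.67 CPM in WT). The fold was 2.85 (log2 fold change 1.51, SE 0.27, 95% interval 0.92 to 2.10, edgeR adjusted p = 0.0562). By p-value it ranked 21 among 13384 genes. Its log2 fold change stayed between 1.28 and 1.93 in 15 alternative analyses. The call depended on the setting: Pfkfb1 passed in DESeq2 (adjusted p = 2.5e-05) and with an offset for GC content and length (edgeR adjusted p = 0.0487, where 0.321% of all genes passed). It passed without WT replicate 2 (edgeR adjusted p = 0.00897, where 13.6% of all genes passed) and without WT replicate 3 (edgeR adjusted p = 0.0112, where 0.105% passed), and the highest value, 0.202, came without KO replicate 3.

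**Figure D1:**
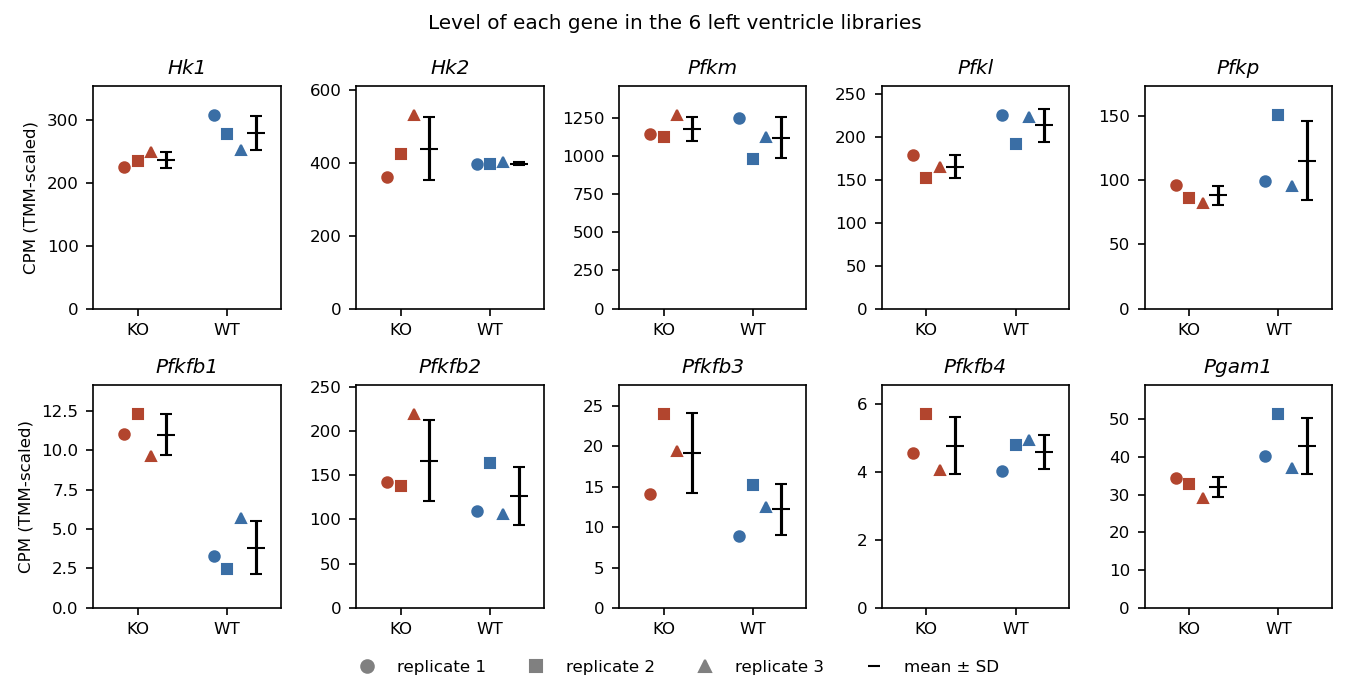
Level in CPM (linear axes from 0) of each gene in the 3 KO and 3 WT libraries, with symbols for the replicate number and bars for the mean ± SD of 3. Pfkfb1 lies between 9.66 and 12.3 CPM in KO and between 2.48 and 5.70 CPM in WT, and Pfkp and Pgam1 are highest in WT replicate 2.

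RefSeq lists 4 starts for Pfkfb1 and 2 for Pfkfb3. The counts cover the whole gene, so they do not show which start was used. The stretches from 100 bases before to 20 bases after each start are shown 5′ to 3′ in GRCm38.p6, because these are the 2 genes of the 10 with the largest log2 fold changes. Capitals mark ACGTG or its complement CACGT, the core letters bound by hypoxia-inducible factors, and where both strands match the run reads CACGTG.
Pfkfb1 start 1 (chrX:150587345-150587464, +): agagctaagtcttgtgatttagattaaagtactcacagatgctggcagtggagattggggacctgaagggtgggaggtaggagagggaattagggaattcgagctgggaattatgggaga
Pfkfb1 start 2 (chrX:150588143-150588262, +): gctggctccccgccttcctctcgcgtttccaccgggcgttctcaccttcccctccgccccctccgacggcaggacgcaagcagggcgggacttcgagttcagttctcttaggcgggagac
Pfkfb1 start 3 (chrX:150589816-150589935, +): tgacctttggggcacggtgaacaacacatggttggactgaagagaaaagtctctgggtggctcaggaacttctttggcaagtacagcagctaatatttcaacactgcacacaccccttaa
Pfkfb1 start 4 (chrX:150594328-150594447, +): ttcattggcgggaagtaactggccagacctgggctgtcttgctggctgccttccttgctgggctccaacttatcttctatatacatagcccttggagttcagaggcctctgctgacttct
Pfkfb3 start 1 (chr2:11553910-11554029, -): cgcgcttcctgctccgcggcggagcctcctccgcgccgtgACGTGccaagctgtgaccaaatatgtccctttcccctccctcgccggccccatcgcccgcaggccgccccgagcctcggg
Pfkfb3 start 2 (chr2:11502071-11502190, -): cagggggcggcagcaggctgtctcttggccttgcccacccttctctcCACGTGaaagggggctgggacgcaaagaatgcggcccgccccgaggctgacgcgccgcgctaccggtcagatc

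All 10 genes matched, with 20 windows of 300 bases, from 250 before to 50 after each start. The letters ACGTG, searched on both strands, occurred in 9 of the 20 windows (45%), against 19.6% of 32851 mouse windows of that length. They lay in both windows of Pfkfb3, in the Hk2 and Pgam1 windows, in 1 of 2 windows of Hk1, in 2 of 4 of Pfkm and in 2 of 3 of Pfkfb2. They were not among the letters of the 4 Pfkfb1 windows or of the windows of Pfkl, Pfkp and Pfkfb4. CACGTG, which contains ACGTG, was found in 7.15% of all windows, and among the 10 genes in 1 window each of Pfkm, Pfkfb2 and Pfkfb3. The windows of the 10 genes held 36.7% to 69.7% G and C, and the share of all windows was not matched for this. Windows of 1 gene can share bases, and a match of letters is not a binding site.

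In GRCm38, the annotated Pfkfb1 gene runs from 150588229 to 150643878 on the plus strand of chromosome X. It shares 123 exon bases with Apex2, a DNA repair gene on the other strand. No use of strand is given in the sources used here, so reads there cannot be told apart. Apex2 was at 5.59, 5.87 and 5.56 CPM in KO ventricles, against 3.99, 3.26 and 4.55 CPM in WT ventricles (log2 fold change 0.53, SE 0.21, edgeR adjusted p = 0.208). It was thus also higher in every KO library, and its part in the Pfkfb1 result was not tested. Pfkfb1 is X-linked, and the Y-linked genes Ddx3y, Kdm5d, Uty and Eif2s3y had counts in all 6 libraries. Their log2 fold changes were 0.51, 0.39, 0.68 and 0.34, with the lowest edgeR adjusted p, 0.0910, for Uty. Ddx3y overlapped between the groups, while the others were higher in every KO library, a pattern of 11.8% of all genes.

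Pfkfb2, the heart isoform, was the most abundant of its family. It was at 142, 138 and 219 CPM in KO ventricles, against 109, 164 and 106 CPM in WT ventricles. The groups overlapped, with the highest level in KO replicate 3 and WT replicate 2 above both other KO libraries (log2 fold change 0.39, SE 0.21, edgeR adjusted p = 0.333). Without KO replicate 3 the log2 fold change was 0.15, without WT replicate 2 it was 0.63, and with the GC content and length offset it was 0.24. The gene lies on chromosome 1 from 130689182 to 130729253 and shares 1262 exon bases on its strand with the model Gm29427, between which reads could be split. It also shares 154 exon bases with Yod1 on the other strand, which was at 4.74, 3.16 and 3.62 CPM in KO ventricles, against 2.59, 2.75 and 2.23 CPM in WT ventricles. Pfkfb3, the inducible isoform, was at 14.1, 24.0 and 19.4 CPM in KO ventricles, against 8.93, 15.2 and 12.5 CPM in WT ventricles. KO replicate 1 lay below WT replicate 2, so the groups overlapped (log2 fold change 0.65, SE 0.22, 95% interval 0.16 to 1.14, edgeR adjusted p = 0.158). Pfkfb3 passed without WT replicate 2 (edgeR adjusted p = 0.0392), as did 13.6% of all genes. Pfkfb4, the isoform described in testis, was at 4.57, 5.70 and 4.06 CPM in KO ventricles and 4.03, 4.81 and 4.95 CPM in WT ventricles. Its 95% interval ran from -0.42 to 0.53 on the log2 scale (edgeR adjusted p = 0.913). A difference in either direction within that interval remains possible at this depth and spread.

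Hk1, the widely expressed hexokinase, was at 225, 235 and 250.01 CPM in KO ventricles, against 308, 278 and 253 CPM in WT ventricles. The groups did not overlap, but the nearest libraries, KO replicate 3 and WT replicate 3, were close together (log2 fold change -0.24, SE 0.12, 95% interval -0.51 to 0.025, edgeR adjusted p = 0.300). With the GC content and length offset the log2 fold change was -0.13. Hk1 was highest in WT replicate 1. Endothelial markers were also highest there, at 1411 CPM, against 881 to 1104 CPM in KO libraries, 963 CPM in WT replicate 2 and 1196 CPM in WT replicate 3. The ventricular, atrial, smooth muscle, pericyte, red blood cell and mesothelial sums were highest in WT replicate 1 too. The part of any of these cells was not tested. Hk2, the muscle isoform, was at 361, 425 and 531 CPM in KO ventricles, against 395, 396 and 402 CPM in WT ventricles. The KO libraries spread around the WT libraries, with an SD of 85.9 CPM in KO and 3.45 CPM in WT (log2 fold change 0.14, SE 0.14, edgeR adjusted p = 0.611). Without KO replicate 3 the log2 fold change of Hk2 was -0.018. Without KO replicate 1 it was 0.27, and with the GC content and length offset it was 0.075.

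Pfkm, the muscle subunit and the most abundant of the 10, was at 1139, 1122 and 1266 CPM in KO ventricles, against 1249, 980 and 1121 CPM in WT ventricles. The groups overlapped (log2 fold change 0.074, SE 0.13, 95% interval -0.21 to 0.36, edgeR adjusted p = 0.784), and the value was 0.21 with the GC content and length offset. Pfkl, the liver subunit, was at 179, 152 and 164 CPM in KO ventricles, against 225, 191 and 223 CPM in WT ventricles. No KO library reached the lowest WT library (log2 fold change -0.37, SE 0.13, 95% interval -0.64 to -0.098, edgeR adjusted p = 0.152). Pfkl passed without WT replicate 2 (edgeR adjusted p = 0.0274), as did 13.6% of all genes. With the GC content and length offset its log2 fold change was -0.20. The longest coding transcripts of Pfkl and Hk1 are rich in G and C, at 57.1% and 56.4%, against 48.6% in Pfkfb1 and 45.3% in Pfkfb2.

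Pfkp, the platelet subunit, was at 96.5, 86.4 and 82.0 CPM in KO ventricles, against 99.1, 151 and 95.9 CPM in WT ventricles. WT replicate 2 lay far above the other 5 libraries, and WT replicate 3 lay below KO replicate 1 (log2 fold change -0.38, SE 0.17, edgeR adjusted p = 0.245). Pgam1, the non-muscle mutase, was at 34.3, 32.8 and 29.2 CPM in KO ventricles, against 40.2, 51.3 and 37.1 CPM in WT ventricles. The groups did not overlap, and WT replicate 2 was again the highest (log2 fold change -0.42, SE 0.15, edgeR adjusted p = 0.164). Without WT replicate 2, the library with the high fibroblast markers, the log2 fold change was -0.14 for Pfkp and -0.26 for Pgam1. The part of fibroblasts in either value was not tested. Reads of Pfkp on chromosome 13 can overlap those of Pitrm1, which shares 748 exon bases on the other strand. Pgam1 has 1 annotated pseudogene that matches at least 95% of the letters over 765 bases, so its count is uncertain. Pgam2, the muscle mutase, was at 446, 432 and 433 CPM in KO ventricles, against 604, 434 and 580 CPM in WT ventricles (log2 fold change -0.30, SE 0.14, edgeR adjusted p = 0.260), and its groups overlapped between KO replicate 1 and WT replicate 2. Pgam2 passed without WT replicate 2 (log2 fold change -0.43, edgeR adjusted p = 0.0224), as did 13.6% of all genes. Its log2 fold change was -0.045 with the GC content and length offset.

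**Figure D2:**
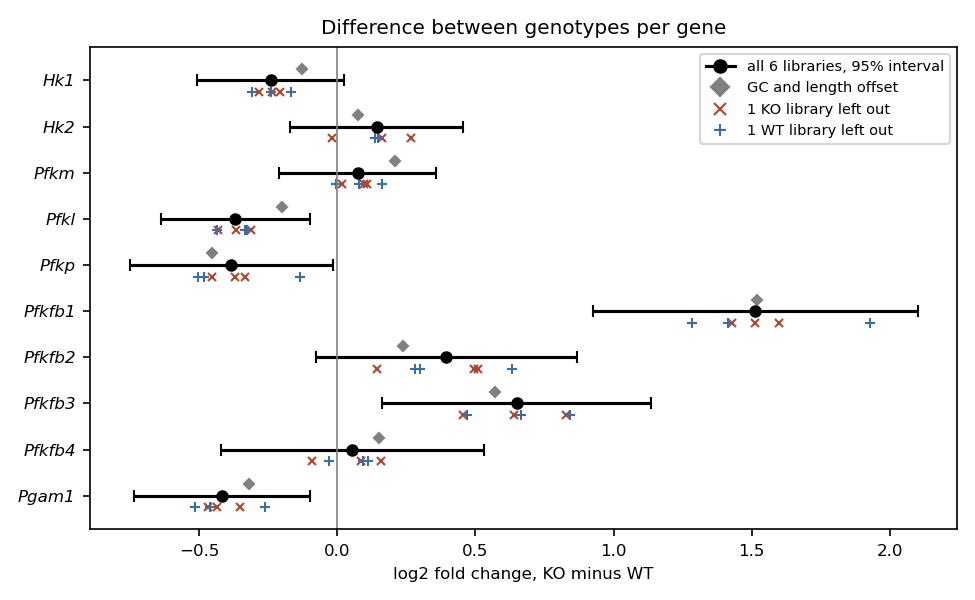
Log2 fold change, KO minus WT, of each gene with its 95% interval from all 6 libraries (black), with the GC content and length offset (grey diamonds), and with 1 KO (crosses) or 1 WT (plus signs) library left out. Pfkfb1 stays between 1.28 and 1.93, while Hk2, Pfkm and Pfkfb4 cross 0 when a single library is left out.

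Levels were set beside each other per length, as CPM per kb of the longest coding transcript in GENCODE M21, since a long transcript yields more reads. In KO ventricles the level was 408 ± 27.3 CPM per kb for Pfkm, 79.6 ± 15.6 for Hk2, 55.3 ± 2.95 for Hk1 and 44.2 ± 3.66 for Pfkl (SD, n = 3). It was 37.5 ± 10.3 CPM per kb for Pfkfb2, 21.3 ± 1.79 for Pfkp, 18.1 ± 1.49 for Pgam1, 5.87 ± 0.700 for Pfkfb1, 3.99 ± 1.03 for Pfkfb3 and 1.37 ± 0.241 for Pfkfb4. In WT ventricles the means followed the same order except at its lower end, where Pfkfb3, at 2.54 ± 0.651 CPM per kb, stood before Pfkfb1, at 2.04 ± 0.895. Per kb of the longest coding transcript, Pfkfb1 exceeded Pfkfb3 in all 3 KO libraries and in WT replicate 3. Per kb of union exon length that order reversed in KO replicates 2 and 3 and in WT replicate 3, and held in KO replicate 1 alone. The means by that length were 2.73 CPM for Pfkfb1 and 2.54 CPM for Pfkfb3 in KO, and 0.952 and 1.61 CPM in WT. Neighbours whose libraries overlapped in WT were Hk2 and Hk1 (72.1 ± 0.626 and 65.4 ± 6.47 CPM per kb), Hk1 and Pfkl (57.1 ± 5.09), Pfkfb2 and Pfkp (28.5 ± 7.33 and 27.8 ± 7.43), Pfkp and Pgam1 (24.2 ± 4.20), Pfkfb3 and Pfkfb1, and Pfkfb1 and Pfkfb4. In KO the libraries of neighbours overlapped for Pfkl and Pfkfb2. The place of Pfkp also depends on the length used: per kb of union exon length it averaged 6.59 CPM in KO and 8.60 CPM in WT, below Pgam1, at 16.2 CPM in KO and 21.6 CPM in WT.

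Shares within a family show the isoform balance directly. Hk2 made up 55.4%, 58.4% and 62.2% of hexokinase CPM per kb in KO ventricles, against 49.9%, 52.5% and 55.2% in WT ventricles. The highest WT library and the lowest KO library nearly met. The family's summed level was 135 ± 18.5 CPM per kb in KO and 137 ± 5.94 in WT (SD, n = 3 each). Pfkm made up 84.7%, 86.4% and 87.3% of the phosphofructokinase-1 total in KO ventricles, against 83.7%, 79.5% and 82.4% in WT ventricles, and the groups did not overlap. Pfkl made up 10.3%, 9.01% and 8.75% in KO ventricles, against 11.6%, 12.0% and 12.7% in WT ventricles, again without overlap. The total was 474 ± 26.9 CPM per kb in KO and 473 ± 45.1 in WT.

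Pfkfb1 made up 14.0%, 14.8% and 8.63% of the PFKFB total in KO ventricles, against 5.99%, 3.09% and 9.80% in WT ventricles. KO replicate 3, whose Pfkfb2 level was the highest, lay below WT replicate 3, so the shares overlapped although the levels of Pfkfb1 did not. Pfkfb2 made up 76.0%, 70.2% and 82.7% in KO ventricles, against 83.7%, 86.3% and 77.2% in WT ventricles. It was the main isoform in all 6 libraries. The PFKFB total was 48.7 ± 9.61 CPM per kb in KO and 34.4 ± 7.34 in WT, and WT replicate 2, at 42.9, lay above KO replicate 1, at 42.2.

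**Figure D3:**
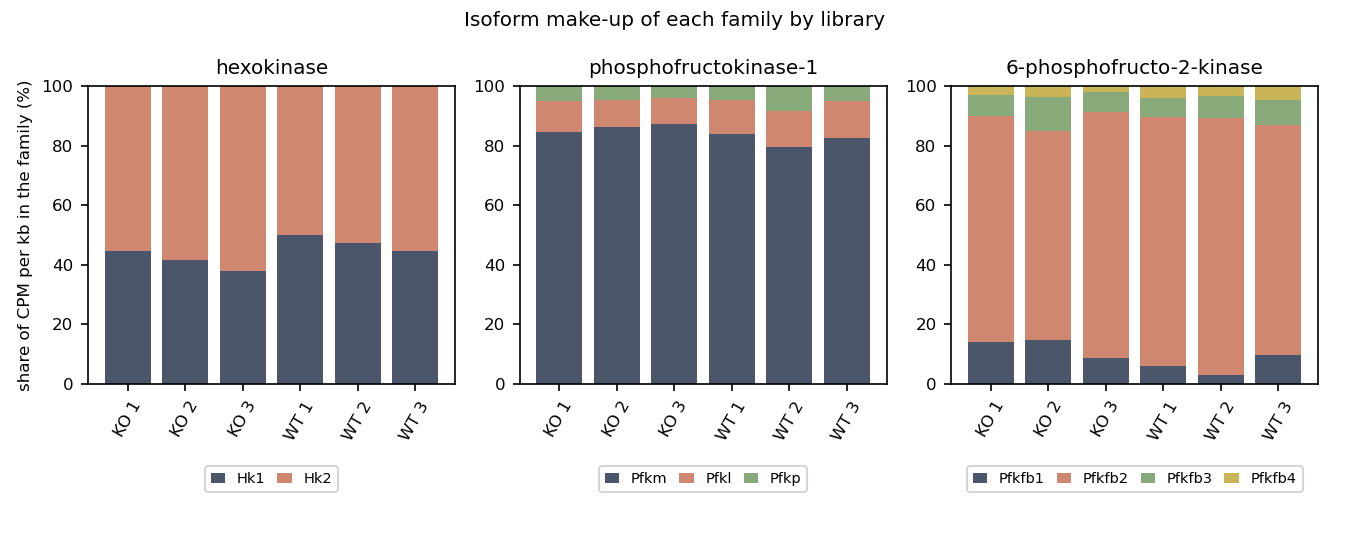
Share of each isoform in its family's CPM per kb (%, bars from 0 to 100) in each library. The Hk2 share is 55.4% to 62.2% in KO and 49.9% to 55.2% in WT, Pfkm makes up 79.5% or more and Pfkfb2 70.2% or more in every library.

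Ratios of counts within a library do not depend on size factors, and a gene's length cancels from the difference between groups, though not from the ratio itself. Of 7 such ratios, tested by exact two-sided permutation of the 6 libraries, 2 had groups that did not overlap. Their exact p was 0.1, the smallest that the 20 splits allow, and the adjusted p over the 7 ratios was 0.35, so the design could not reach 0.05. For Hk2 over Hk1, KO libraries had 160, 181 and 212 Hk2 reads per 100 Hk1 reads, against 128, 142 and 159 in WT libraries. The log2 ratio differed by 0.36 (SE 0.15), and by 0.19 with the GC content and length offset (exact permutation p = 0.3). For Pfkl over Pfkm, KO libraries had 15.7, 13.5 and 13.0 Pfkl reads per 100 Pfkm reads, against 18.02, 19.5 and 19.9 in WT libraries. The log2 ratio differed by -0.45 (SE 0.094), by -0.42 with that offset, and by -0.53 to -0.39 when a library was left out, so it was the steadier of the pair.

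Without the GC content and length offset, the other ratios overlapped between the groups. Pfkp over Pfkm differed by -0.43 on the log2 scale (SE 0.32, exact permutation p = 0.2), and by -0.13 without WT replicate 2. Pfkfb1 over Pfkfb2 differed by 1.21 (SE 0.61, exact permutation p = 0.2), and by 0.74 without WT replicate 2. With the offset, Pfkp over Pfkm differed by -0.64 and Pfkfb1 over Pfkfb2 by 1.38 (exact permutation p = 0.1 for each, so separate groups). Which ratios were separate thus depended on the setting. Pfkfb3 over Pfkfb2 differed by 0.26 (SE 0.34, exact permutation p = 0.6) and Pfkfb4 over Pfkfb2 by -0.34 (SE 0.39, exact permutation p = 0.5). With the offset they differed by 0.36 (exact permutation p = 0.5) and -0.071 (exact permutation p = 0.9), and Pgam1 over Pgam2 by -0.26 (exact permutation p = 0.6). Pgam1 over Pgam2 differed by -0.12 (SE 0.29, exact permutation p = 1), with 11.8 Pgam1 reads per 100 Pgam2 reads in WT replicate 2, against 6.75 to 7.71 in KO libraries and 6.41 and 6.66 in the other WT libraries.

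**Figure D4:**
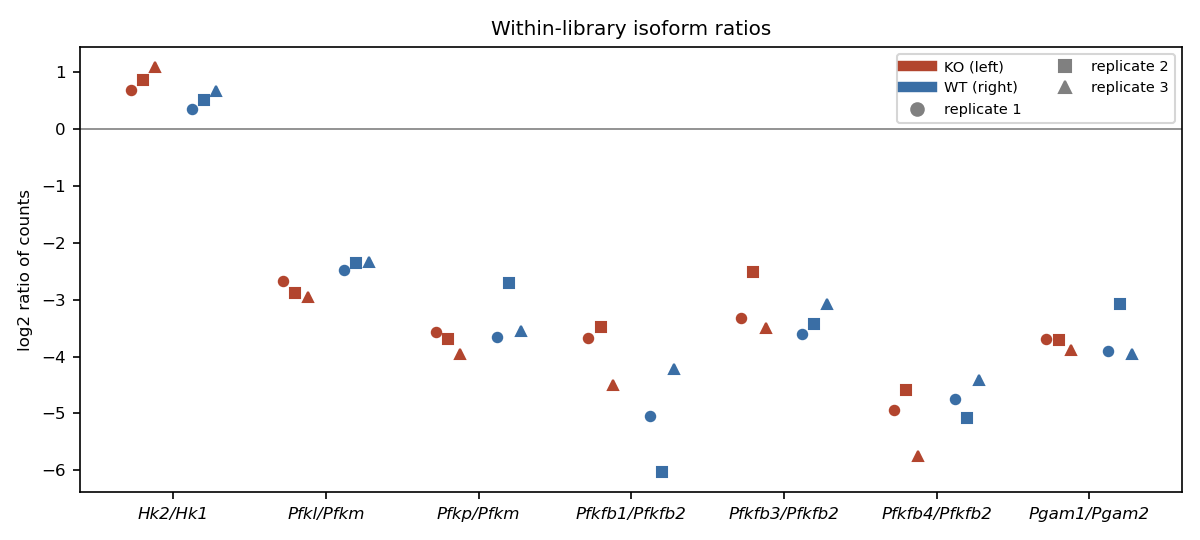
Log2 ratio of counts between isoforms in each library, KO left and WT right of each tick, with symbols for the replicate number. Groups are separate for Hk2/Hk1 and Pfkl/Pfkm, and WT replicate 2 is highest for Pfkp/Pfkm and Pgam1/Pgam2.

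The rest of the pathway was described by 5 lists. Over all 13384 genes, 6618 had a log2 fold change above 0 and 6766 below 0, and 19.2% had an unadjusted p under 0.05 (1369 higher and 1197 lower). No gene of any list passed the edgeR test over all genes. DESeq2 called 4 of them, Pdpr, Pgls and Ppara included, and 4.62% of all genes. With limma-voom 0 were called, and 0.105% of all genes. In the glycolytic chain, 18 of 21 measured genes had a log2 fold change below 0, with a median of -0.11, and 1 was higher and 3 lower at an unadjusted p under 0.05, a share near that of all genes. Eno2, which encodes the neuronal enolase, was at -0.65 on the log2 scale, KO minus WT (SE 0.30, edgeR adjusted p = 0.260).

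Among 12 genes of glucose and lactate transport, 2 were higher and 0 lower at an unadjusted p under 0.05, with a median of -0.027. These were the transporter gene Slc2a12 (log2 fold change 0.66, SE 0.21) and Tbc1d4, a regulator of GLUT4 traffic (0.30, SE 0.13). Slc2a8 followed at -0.23 (SE 0.16), and was at 0.16 with the GC content and length offset. Pyruvate entry had 12 of 15 genes above 0 and a median of 0.24. Pdpr, the regulatory subunit of pyruvate dehydrogenase phosphatase, was at 62.9, 44.2 and 83.9 CPM in KO ventricles, against 38.2, 32.4 and 17.7 CPM in WT ventricles (log2 fold change 1.12, SE 0.33, edgeR adjusted p = 0.146). The catalytic subunit gene Pdp2 had a log2 fold change of 0.58 (SE 0.20) and Pdha1 at 0.26 (SE 0.13), and 2 genes of this list were higher at an unadjusted p under 0.05.

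Side branches of the sugar phosphates had a median of -0.040 over 21 genes, with 1 higher and 1 lower at an unadjusted p under 0.05. The lower was Pgls, of the pentose phosphate pathway (log2 fold change -0.68, SE 0.19, edgeR adjusted p = 0.104), which was at -0.12 with the GC content and length offset. The higher was Ogt, the O-GlcNAc transferase gene (0.33, SE 0.15), at 0.078 with that offset, and Taldo1 was at -0.24 (SE 0.13). The list of 28 regulators, mainly kinases, their subunits and transcription factors, also held Vdac1, Vdac2, Vdac3, Trim63, Vhl, Egln1 and Egln3. Its median was 0.0059, with 4 higher and 2 lower at an unadjusted p under 0.05. Ppara, a fatty acid sensor that opposes glucose use, was at 99.9, 77.6 and 119 CPM in KO ventricles, against 63.8, 62.5 and 67.6 CPM in WT ventricles (log2 fold change 0.61, SE 0.15, edgeR adjusted p = 0.0847). Prkaa2, a catalytic subunit of AMP-activated kinase, which phosphorylates PFKFB2, was at 0.43 (SE 0.14), and Ppargc1a, a coactivator of mitochondrial genes, at 0.38 (SE 0.12). Prkaa2 was at 0.045 and Ppargc1a at 0.050 with the offset, which also took Tbc1d4 to 0.17, Pdha1 to 0.16 and Taldo1 to -0.099. The lower regulators, named after their values were seen, were Epas1 and Esrra. Epas1, which encodes a hypoxia-inducible factor alpha subunit, was at 157, 226 and 213 CPM in KO ventricles, against 328, 235 and 272 CPM in WT ventricles. All KO libraries lay below all WT libraries (log2 fold change -0.48, SE 0.16, edgeR adjusted p = 0.151). Epas1 passed without WT replicate 2 (edgeR adjusted p = 0.0323), where 13.6% of all genes passed. Esrra, which encodes a nuclear receptor of energy metabolism, was at -0.37 (SE 0.15) and overlapped between the groups. It passed without WT replicate 2 (edgeR adjusted p = 0.0132) and was at 0.028 with the offset. Also higher was Mlxip, a glucose-responsive factor gene, at 0.37 (SE 0.13).

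**Figure D5:**
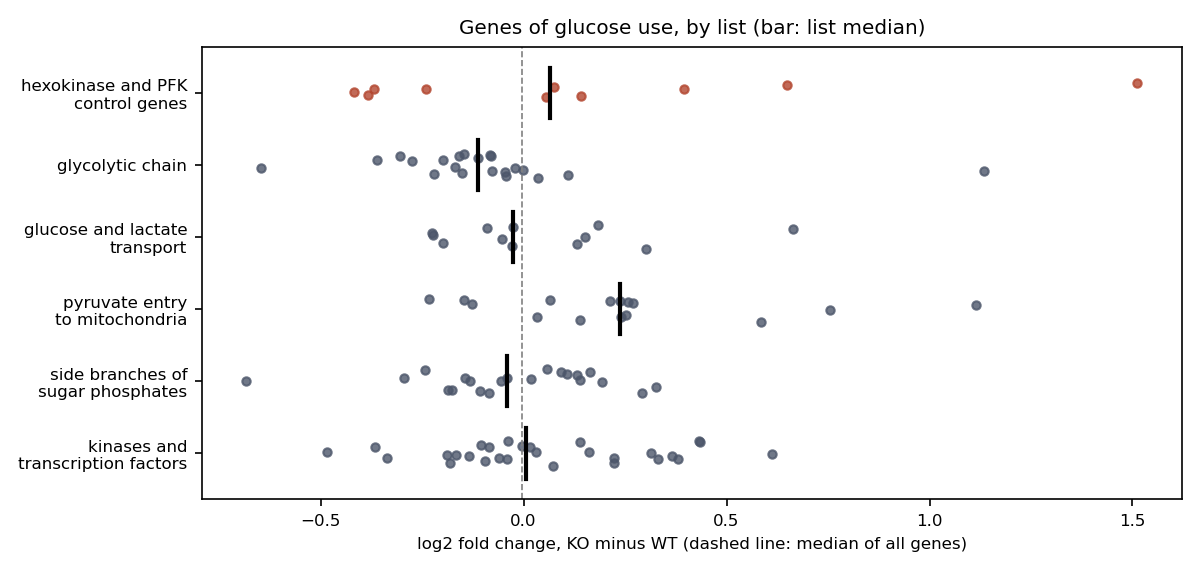
Log2 fold change, KO minus WT, of each measured gene (points) by list, with the list median (bar) and the median of all genes (dashed line). The 10 genes described here span -0.42 to 1.51 around a median of 0.065, and the medians of the lists run from -0.11 to 0.24.

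Likeness of pattern was measured for the 2 genes of smallest p-value among the 10, as the root mean square difference of log2 CPM centred over the 6 libraries. Among the 5 nearest to Pfkfb1 were Ccl11 (0.25), Hs3st5 (0.28), Nr4a3 (0.39) and Aspm (0.39). Nearest to Pfkl were Zxda (0.036), Mtcl1 (0.042), Ccnq (0.044), Hras (0.058) and Coa3 (0.059). Each gene named by this measure was separated between the groups in the direction of its partner. That follows from choosing them by likeness to separated genes in the same libraries, and is no result of its own. With 6 libraries, many genes can share a pattern, and none of these passed the edgeR test.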

How the data were processed

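Polyadenylated RNA of 6 left ventricles was sequenced. Gene counts, whole and not normalized, are what the authors deposited. The submitters' processing notes name mm10 and DESeq2; the aligner, counter, annotation, use of strand and any filter are not stated there. Every gene had at least 12 counts in every library.

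The model was edgeR 4.0.16 under R 4.3.3 (robust quasi-likelihood test, TMM factors, filterByExpr, which removed no gene), KO against WT without covariates, two-sided, with Benjamini-Hochberg adjustment over 13384 genes. The common biological coefficient of variation was 0.166. The step was tested on simulated data. Levels are TMM-scaled CPM. Isoform ratios used counts plus 0.5. Alternatives were DESeq2 1.42.0, limma-voom (limma 3.58.1), other size factors and filters, no robustness, the replicate block, each library left out, and a spline offset (4 degrees of freedom each) on GC content and length. GENCODE M21 gave both for 94.2% of genes. Start windows are from RefSeq (GRCm38.p6).

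The genes, the lists and the alternatives were chosen with earlier results of these data known. Every gene of the 10 was named, with Pgam2, the 3 list genes of smallest p-value and the 5 genes of nearest pattern; others were chosen after their values were seen. Some genes that this rule names are not reported here. The labels give no batch.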

Additional observations from a re-analysis of the deposited data

How the results depend on the processing

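Of the 10 genes, the number past an adjusted p of 0.05 was 0 in the edgeR test, 1 with DESeq2, 1 with the GC content and length offset and 0 to 3 when a library was left out. At a threshold of 0.1 it was 1, with 2.38% of all genes. The pathway lists had 0 genes past 0.05, 4 with DESeq2, 2 at 0.1 and 0 to 8 when a library was left out, the 8 without WT replicate 2. The share of all genes was 4.62% with DESeq2 and 13.6% without WT replicate 2. With the replicate block, 1 of the 10 genes (Pfkfb1, edgeR adjusted p = 0.00305) and 1 list gene passed, with 1.63% of all genes. Over all genes, 15 passed in the edgeR test, 618 with DESeq2, 218 with the block and 43 with the offset. Leaving out a library gave 0 (KO replicate 3) to 1826 (WT replicate 2), with 1 without KO replicate 1 and 8 without WT replicate 1. Same-numbered libraries did not deviate together (correlations of -0.12, -0.076 and -0.15), so the numbers were not taken as pairs. Leaving out a library took Hk2 to between -0.018 and 0.27, Pfkm to between -0.0044 and 0.16, Pfkfb4 to between -0.093 and 0.16, the Pfkfb3 over Pfkfb2 ratio to between -0.036 and 0.45, and Pgam1 over Pgam2 to between -0.27 and 0.17. Slc2a8 was at 0.16 with the GC content and length offset. The cause of these changes was not tested. Hk1, Pfkl, Pfkp, Pfkfb1, Pfkfb2, Pfkfb3 and Pgam1 kept their direction in all 15 alternatives. With union exon length in place of transcript length, mean shares in KO were 72.3% for Hk2, 91.8% for Pfkm, 6.46% for Pfkl, 1.73% for Pfkp, 9.74% for Pfkfb1 and 8.87% for Pfkfb3. At 3 mice a group, genes near Pfkfb4's level are limited by counting error as well as by spread.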

Other observations

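A pair of genes of pyruvate and glucose handling, chosen after their values were seen, varied widely within groups. Pdk4, a kinase that shuts off pyruvate dehydrogenase, was at 832, 316 and 174 CPM in KO ventricles, against 309, 148 and 326 CPM in WT ventricles. Txnip, an inhibitor of glucose uptake, was at 625, 356 and 340 CPM in KO ventricles, against 267, 411 and 692 CPM in WT ventricles. Neither passed the edgeR test (adjusted p = 0.605 for Pdk4 and 0.959 for Txnip).

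Hif1a, which encodes a subunit of hypoxia-inducible factor, was at 89.7, 82.9 and 83.6 CPM in KO ventricles, against 74.8, 124 and 73.3 CPM in WT ventricles. The high library, WT replicate 2, was also the highest for Pfkp, Pgam1 and fibroblast markers.

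Gapdh was at 36.1 to 46.5 CPM in KO libraries and 36.7 to 53.1 CPM in WT libraries, while Aldoa, which acts just before it, was at 1966 to 2022 CPM in KO libraries and 2103 to 2635 CPM in WT libraries. In GENCODE M21, 77 other genes match Gapdh at 95% identity or more over at least 300 bases, and none match Aldoa. The handling of reads that fit several places is not stated in the labels.

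Of genes near Pfkfb1 on the X chromosome, Alas2, Tro and Maged2 overlapped between the groups, with log2 fold changes of -0.15 (SE 0.26), -0.49 (SE 0.32) and 0.032 (SE 0.14).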
